A study of Mus musculus with 16 samples.

Results

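The acetylation of histone H3 at lysine 27 (H3K27ac), a mark of active promoters and enhancers, was examined around Aim2 and 5 genes of the Ifi200 cluster (Ifi207, Ifi204, Ifi203, Ifi202b and Ifi205) on mouse chromosome 1. The members were the H3K27ac peaks that lay within 50 kb of any annotated start site of these 6 genes. After peaks that overlap between conditions had been merged, the locus held 52 regions of 55218 in the genome. The locus was chosen by its readout, because it holds one of the highest-scoring regions seen under IFNγ with PJ34 and in no other condition. That presence pattern rests on all 4 conditions, so it and the comparisons between conditions are given below as descriptions only.

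The cells were primary bone marrow-derived macrophages (BMDMs) of C57Bl6 mice aged 8 to 12 weeks, cultured in 4 conditions. Control cells were left untreated, IFNγ cells received 100 ng/mL of interferon gamma for 1 h, PJ34 cells received 20 µM of this inhibitor of PARP-1 and related ADP-ribosyltransferases, and IFNγ+PJ34 cells received PJ34 1 h before the same IFNγ treatment. Each condition had 2 ChIP samples and 2 input samples, 16 samples in all, and the authors combined the replicates of a condition into a single peak list. No value below therefore has a replicate error, no difference could be set against the spread between replicates, and no test was made. The read depth is unknown, since the lists hold no read counts.

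The Ifi200 family, also called the PYHIN family, encodes proteins that pair an N-terminal pyrin domain with one or more C-terminal HIN domains, which bind double-stranded DNA. AIM2 senses DNA in the cytosol and assembles an inflammasome through ASC and caspase-1, and several Ifi200 genes are induced by interferons in macrophages. The mouse cluster arose by tandem duplication, so its genes and promoters resemble each other. Promoters of interferon-inducible genes often carry short motifs, among them the gamma-activated sequence (GAS) and the interferon-stimulated response element (ISRE), the latter bound by interferon regulatory factors.

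The promoters are shown first, because many of them share an ISRE core, which began between 35 and 134 bases before the start site. Sequences are the 250 bases before the RefSeq start site on GRCm38.p6, read 5′ to 3′ along the gene, and 5 of the 6 members matched an entry, the other being Ifi204. Capitals mark a GAS (TTCNNNGAA) or an ISRE core (a pair of GAAA with any 2 bases between them), searched for on both strands.
Ifi207, chr1:173741810-173742059, minus strand: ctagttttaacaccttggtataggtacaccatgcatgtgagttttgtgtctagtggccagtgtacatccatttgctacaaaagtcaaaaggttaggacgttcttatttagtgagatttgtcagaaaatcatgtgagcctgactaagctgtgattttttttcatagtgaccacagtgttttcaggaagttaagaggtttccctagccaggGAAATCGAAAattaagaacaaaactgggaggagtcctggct
Ifi203, chr1:173942493-173942742, minus strand: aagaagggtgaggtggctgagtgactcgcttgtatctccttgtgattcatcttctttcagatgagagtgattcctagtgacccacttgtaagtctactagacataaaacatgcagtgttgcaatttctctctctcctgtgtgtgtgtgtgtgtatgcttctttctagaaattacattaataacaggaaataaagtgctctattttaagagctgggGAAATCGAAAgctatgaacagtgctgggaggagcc
Ifi205, chr1:174031756-174032005, minus strand: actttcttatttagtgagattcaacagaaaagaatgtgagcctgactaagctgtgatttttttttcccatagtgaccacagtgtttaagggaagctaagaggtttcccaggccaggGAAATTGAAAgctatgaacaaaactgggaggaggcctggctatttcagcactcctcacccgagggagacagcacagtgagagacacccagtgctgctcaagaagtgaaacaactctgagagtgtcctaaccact
Ifi202b, chr1:173982845-173983094, minus strand: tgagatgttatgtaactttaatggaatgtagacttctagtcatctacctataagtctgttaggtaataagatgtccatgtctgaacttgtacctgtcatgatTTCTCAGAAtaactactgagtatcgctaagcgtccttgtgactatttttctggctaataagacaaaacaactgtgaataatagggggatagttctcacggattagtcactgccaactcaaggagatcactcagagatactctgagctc
Aim2, chr1:173420354-173420603, plus strand: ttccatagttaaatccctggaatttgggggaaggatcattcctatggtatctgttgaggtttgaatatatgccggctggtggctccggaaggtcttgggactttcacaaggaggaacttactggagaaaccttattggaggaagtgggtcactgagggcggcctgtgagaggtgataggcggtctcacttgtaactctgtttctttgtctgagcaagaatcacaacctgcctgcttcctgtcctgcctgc
The ISRE core was found in 3 of these 5 promoters, those of Ifi207, Ifi203 and Ifi205, against 2.98% of 32841 promoter windows of the same length in the genome. It began 41 bases before the start site in Ifi207, 35 in Ifi203 and 134 in Ifi205. RefSeq has another start site for Ifi203, whose window, chr1:173942673-173942922, held no ISRE core. Ifi202b had a GAS, a motif found in 7.02% of promoter windows, and Aim2 had neither motif. The Aim2 window held the letters GAGGAAGT, searched for as a PU.1 motif and found in 2.44% of windows.

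The stretches around the ISRE core show how alike the copies are, with the core in capitals and 10 bases on either side. Those of 6 other genes of the cluster are set beside the members.
Ifi207: cctagccaggGAAATCGAAAattaagaaca
Ifi203: aagagctgggGAAATCGAAAgctatgaaca
Ifi205: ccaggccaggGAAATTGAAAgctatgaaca
Ifi206: tgtctctgagGAAATCGAAAgctatgaacc
Ifi208: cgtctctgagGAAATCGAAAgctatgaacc
Ifi211: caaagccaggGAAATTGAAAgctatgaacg
Ifi213: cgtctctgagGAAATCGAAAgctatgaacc
Ifi214: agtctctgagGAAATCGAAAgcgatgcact
Mndal: aagagctgggGAAATCGAAAgctatgaaca
Of the 7 other family genes searched (Ifi206, Ifi208, Ifi209, Ifi211, Ifi213, Ifi214 and Mndal), 6 held the core and Ifi209 did not. Over the 250 bases, the Ifi207 promoter was identical to that of Ifi211 at 86.4% of positions and the Ifi203 promoter shown to one of the 2 Mndal promoters, the one that gave the stretch above, at 93.2%. With the other Mndal promoter the identity was 59.2%. The summits of the regions, which need not lie at promoters, were searched in the same way. Within the 300 bases centred on the summit, an ISRE core was present in 3 of 52 regions (5.77%, against 4.47% of all regions), among them the Ifi205 start-site region, and a GAS in 10 of 52 (19.2%, against 8.85%). The control motif GAANNNTTC, in which the ends of the GAS are exchanged, was present in 11.5% of the locus and 7.04% of all regions. Over whole regions, ISRE cores occurred 0.371 times per kb in the locus and 0.182 times per kb in the genome's regions, the control motif 0.451 and 0.255 times, and the GAS 0.358 and 0.340 times. These shares are descriptions of letters and were not tested.

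The 4 lists held between 40708 and 44090 peaks covering between 42.5 and 52.6 Mb. All 10 macrophage markers, among them Csf1r, Spi1 and Cd68, had a peak within 1 kb of a start site in every list, and none of the fibroblast, liver or muscle markers did. Of 4 markers each of T cells, B cells and neutrophils, at most 1 had such a peak in a list, and the fold enrichments there were between 2.73 and 7.71. Of 3 dendritic cell markers, Xcr1 (5.89 to 19.2) and Zbtb46 (3.15 to 5.24) had such a peak in every list and Flt3 had none, and of 3 erythroid markers Klf1 (6.08 to 11.4) had one in every list. At the macrophage markers, the fold enrichment was lower in IFNγ than in Control at 6 of 10 genes, beside 18.8% of all promoter regions. It was lower in PJ34 than in Control at 6 of 10, beside 13.4%, both by at least 1.5-fold after centring as described below. Whether this plays a part in the values of the locus was not tested, and H3K27ac in fewer cells and less H3K27ac per cell cannot be told apart in such samples.

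Over the locus as a whole, though not around every gene, peaks were more numerous in IFNγ+PJ34 than in the other conditions. Control had 36 peaks over 47.8 kb of the locus, IFNγ 35 over 53.0 kb, PJ34 41 over 47.9 kb and IFNγ+PJ34 48 over 62.6 kb. In the same order, the whole lists held 43533, 40708, 44090 and 42960 peaks over 52.6, 42.5, 47.9 and 44.1 Mb. The higher-scoring 50% of each list contributed 15, 18, 18 and 24 of the locus peaks in that order. By gene, in that order, IFNγ+PJ34 had the most peaks at Aim2 (11, 7, 11 and 17), Ifi207 (4, 5, 5 and 7) and Ifi204 (8, 7, 8 and 10). It did not at Ifi203 (5, 8, 8 and 6) or Ifi202b (5, 8, 7 and 7), and at Ifi205 it equalled PJ34 (12, 13, 14 and 14). The 50 kb windows of neighbouring genes overlap, so these counts are not independent. Ifi207 and Ifi204 share peaks, among them that of the picked region, as do Ifi203 and Ifi202b, and Ifi202b and Ifi205. The median fold enrichment of the locus, which is the enrichment of ChIP over background at a peak as the peak caller gave it, was 5.93 (Control), 8.39 (IFNγ), 5.14 (PJ34) and 6.17 (IFNγ+PJ34), beside 6.12, 5.51, 5.26 and 6.32 over the whole lists.

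The regions found in all 4 lists were the most frequent class, at 22 of 52 (42.3%, exact 95% interval 28.7 to 56.8%), beside 38.9% of all regions in the genome. The next class was IFNγ+PJ34 alone, the pattern for which the locus was picked, at 11 of 52 (21.2%, 11.1 to 34.7%), beside 10.4% in the genome. This count depended on the merging: with peaks within 1 kb of each other joined, it was 5 of 27 (18.5%), beside 8.05% in the genome. IFNγ alone accounted for 4 of the 52 regions (7.69%, 2.14 to 18.5%), beside 4.07%. These intervals cover counting error only and treat neighbouring regions as independent. Of the rest, 3 regions each (5.77%) were found in Control and IFNγ+PJ34, in all but IFNγ, and in all but Control. In the genome these patterns held 3.64, 2.89 and 1.35% of regions. Another 2 (3.85%) were found in Control and PJ34, beside 4.04%. Single regions (1.92% each) were found in Control alone, in PJ34 alone, in IFNγ and PJ34, and in all but IFNγ+PJ34. In the genome these held 11.8, 8.93, 2.70 and 5.48%. By position, the best summit lay in an intron in 31 regions, between genes in 14 and in an exon in 7. The map of the 4 lists along the locus shows the same blocks of high-scoring peaks in every condition.

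**Figure D1:**
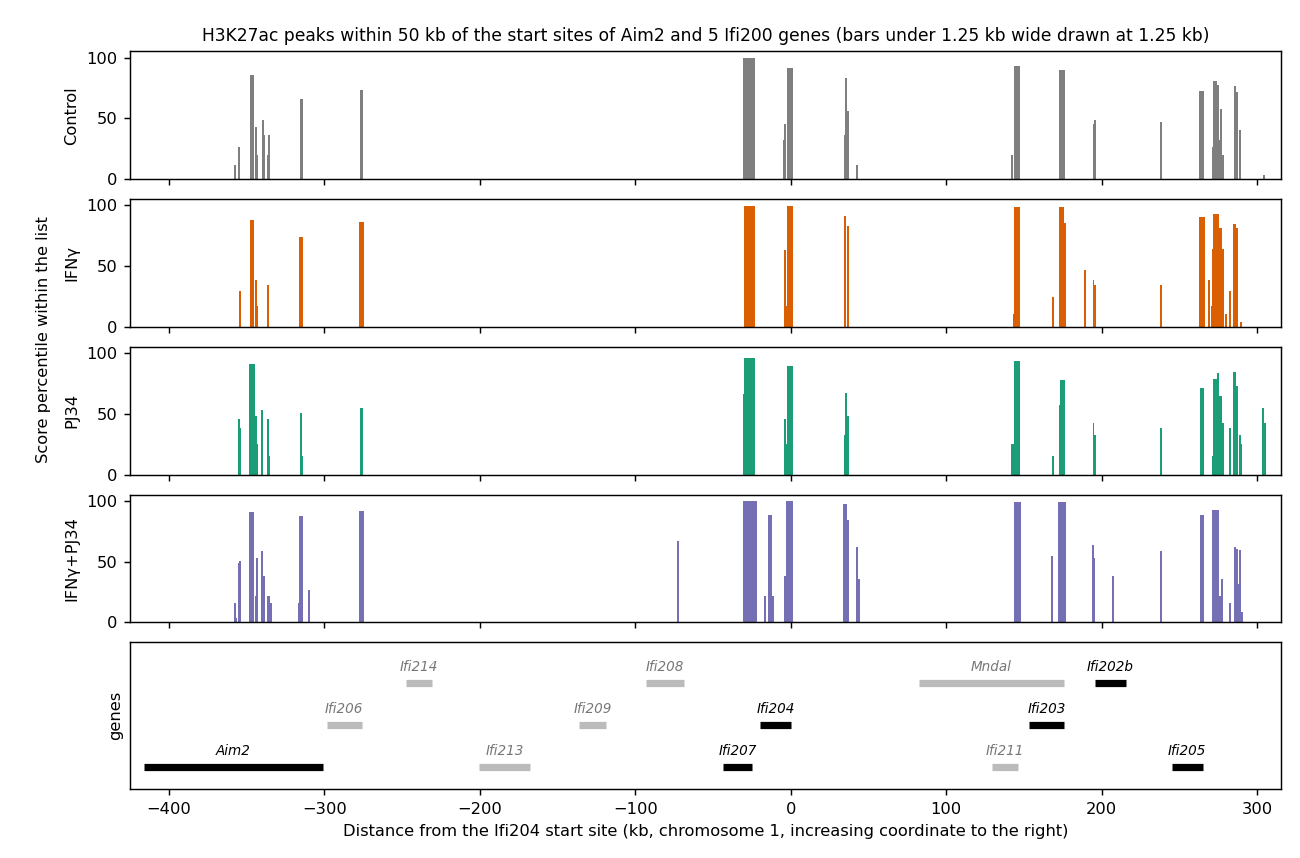
H3K27ac peaks of the 4 lists along the locus, with the score percentile of each peak within its own list (y axis) against the distance from the Ifi204 start site in kb (x axis); black bars are the 6 members and grey bars other genes of the cluster. The tallest blocks, at Ifi207, Ifi204, Ifi211 and Ifi203, are present in all 4 lists, whereas the bar within Ifi204 at the 88.0 percentile is present in IFNγ+PJ34 only.

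At their own start sites, 5 of the 6 members had a region in every list. In each case below, the 4 values are fold enrichments in Control, IFNγ, PJ34 and IFNγ+PJ34, in that order. The largest was that of Ifi207 (ENSMUSG00000073490.11, chr1:173723427-173741747, minus strand), a HIN-domain gene of the cluster. Its region at chr1:173736163-173744913, the widest of the locus at 8.75 kb, reached 83.6, 73.0, 29.2 and 73.1. It was thus high in 3 conditions and lower in PJ34, where its score percentile was 95.8 against 99.6 to 99.9 elsewhere.

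Ifi204 (ENSMUSG00000073489.6, chr1:173747293-173766943, minus strand) encodes the mouse protein usually compared with human IFI16, a sensor of DNA. Its start-site region at chr1:173763795-173768595 reached 27.8, 73.5, 32.4 and 71.0. The conditions with IFNγ were both above those without it, and PJ34 was close to Control. Only 64.1% of 50-base windows in this region occur once in the genome, and reads from the other windows can be lost when only unique alignments are kept.

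Ifi203 (ENSMUSG00000039997.16, chr1:173920407-173942672, minus strand) had a region at chr1:173938981-173944037 that reached 37.5, 58.5, 11.4 and 63.2. PJ34 was the lowest and both IFNγ conditions were the highest. In this region 62.5% of 50-base windows were unique. An annotated start site of Mndal lies in it too, so it cannot be assigned to Ifi203 alone.

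Ifi205 (ENSMUSG00000054203.7, chr1:174011998-174031810, minus strand), another interferon-inducible HIN-domain gene, had a region at chr1:174029473-174033167. It reached 12.7, 28.8, 9.77 and 27.1, so that both conditions with IFNγ were above both without it. Here 98.3% of windows were unique.

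Aim2 (ENSMUSG00000037860.15, chr1:173350879-173466040, plus strand) went another way. Its start-site region at chr1:173418626-173422176, with 95.5% unique windows, reached 20.1, 18.9, 32.0 and 30.9. The conditions with PJ34 were both above those without it, and IFNγ made little difference in either pair. Ifi202b (ENSMUSG00000026535.9, chr1:173962568-173982744, minus strand), which encodes a HIN protein without a pyrin domain, had no peak within 1 kb of its start site in any list. Within its body there was a single region, chr1:173973652-173974077, in IFNγ+PJ34 alone at the 38.4 percentile. Of the 50-base windows in the 2 kb around its start site 69.1% were unique.

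**Figure D2:**
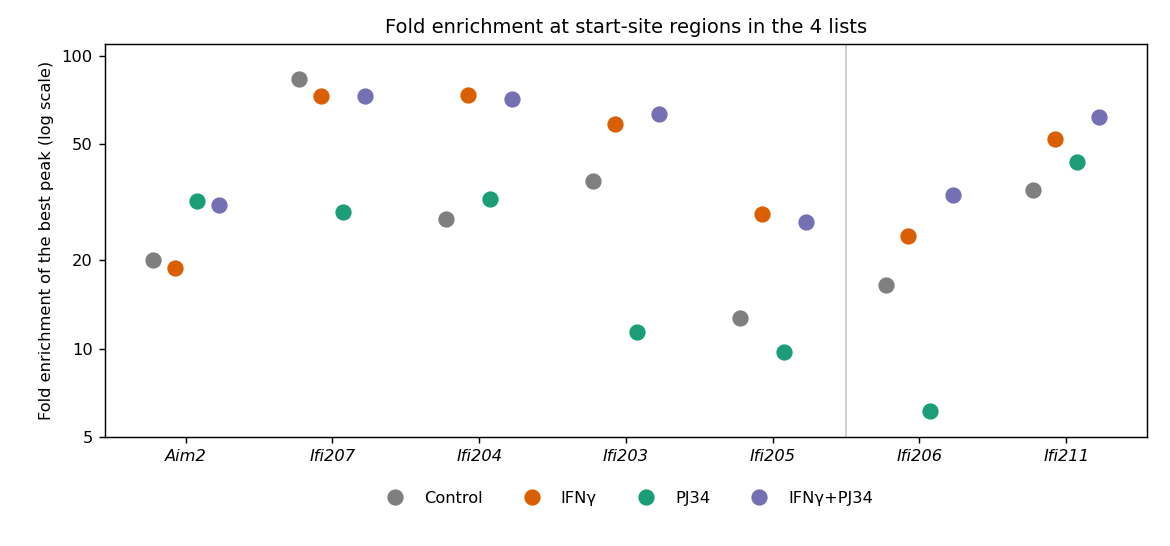
Fold enrichment (log scale) of the best peak in the start-site region of each gene in the 4 lists. Each point is the value in a single list of peaks found in both replicates, and the 2 genes right of the line are not members. Ifi204, Ifi203 and Ifi205 are higher in both lists with IFNγ, from 27.1 to 73.5, than in both without it, while Aim2 is higher in both lists with PJ34.

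To compare conditions over the locus, the ratio of fold enrichments was taken for each region present in both lists and divided by the median of that ratio over all such regions of the genome. The median ratio was 0.777 for IFNγ over Control, 0.885 for PJ34 over Control, 1.10 for IFNγ+PJ34 over IFNγ and 0.954 for IFNγ+PJ34 over PJ34. A region was called higher or lower when this centred ratio differed by at least 1.5-fold. The first 2 comparisons do not use the values of IFNγ+PJ34. They are not free of the choice of the locus, since the picked region also had to lack a peak in Control, IFNγ and PJ34.

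With IFNγ, fold enrichments at the locus lay mostly above those of Control. Of 23 regions in both lists, 12 (52.2%) were higher, beside 20.7% of all regions, and 0 were lower, beside 20.7%. These counts depended on the centring and the limit, since 7 were higher and 2 lower without centring, and 7 were higher at a limit of 2-fold. The median log2 centred ratio of the locus was 0.68, with single regions between -0.45 and 1.77. Among start-site regions of the members, 3 of 5 were higher, those of Ifi204 (log2 centred ratio 1.77), Ifi205 (1.55) and Ifi203 (1.01), and none was lower, beside 13.9% and 18.8% of the promoter regions of all protein-coding genes. Aim2 and Ifi207 had values of 0.28 and 0.17. Of 31 regions in IFNγ, 8 (25.8%) were absent from Control, beside 18.2% in the genome, and of 32 regions in Control, 9 (28.1%) were absent from IFNγ, beside 32.3%.

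With PJ34 alone, the locus as a whole lay close to Control, with a median log2 centred ratio of 0.04, but single regions ranged from -1.54 to 1.51. Of 28 regions in both lists, 2 (7.14%) were higher and 6 (21.4%) lower, beside 16.9% and 19.6% of all regions. The members' start sites differed among themselves: Ifi203 (-1.54) and Ifi207 (-1.34) were lower, Aim2 (0.85) was higher, and Ifi204 (0.40) and Ifi205 (-0.20) were within the limit, beside 15.5% higher and 13.4% lower among all promoter regions. Of 33 regions in PJ34, 5 (15.2%) were absent from Control, beside 21.3%, and 4 of 32 (12.5%) were absent from PJ34 among those of Control, beside 26.0%.

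Between IFNγ+PJ34 and IFNγ, no start site of the members passed the limit, but Aim2 came close. Of 5 start-site regions, 0 were higher and 0 lower, beside 13.5% and 27.3% of all promoter regions, and their log2 centred ratios ran from -0.23 at Ifi205 to 0.57 at Aim2. For Aim2 the ratio before centring was 1.63, which is above the limit. Over all 25 regions in both lists, 7 (28.0%) were higher and 5 (20.0%) lower, beside 24.0% and 22.2%, with a median of -0.03. The lists differed more in presence: 17 of 42 regions in IFNγ+PJ34 (40.5%) were absent from IFNγ, beside 28.9%, and 6 of 31 regions in IFNγ (19.4%) were absent from IFNγ+PJ34, beside 23.2%.

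Under PJ34, the conditions with and without IFNγ differed at most start sites. Of 28 regions in both lists, 17 (60.7%) were higher in IFNγ+PJ34 than in PJ34 and 3 (10.7%) lower, beside 26.9% and 24.0%, with a median log2 centred ratio of 0.84. Among start sites, Ifi203 (2.54), Ifi205 (1.54), Ifi207 (1.39) and Ifi204 (1.20) were higher and none was lower, beside 12.8% and 33.5% of all promoter regions, and Aim2 was at 0.02. Of the regions in IFNγ+PJ34, 14 of 42 (33.3%) were absent from PJ34, beside 28.9%, and of those in PJ34, 5 of 33 (15.2%) were absent from IFNγ+PJ34, beside 32.4%. The comparisons share lists in pairs, so their values are not independent of each other.

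**Figure D3:**
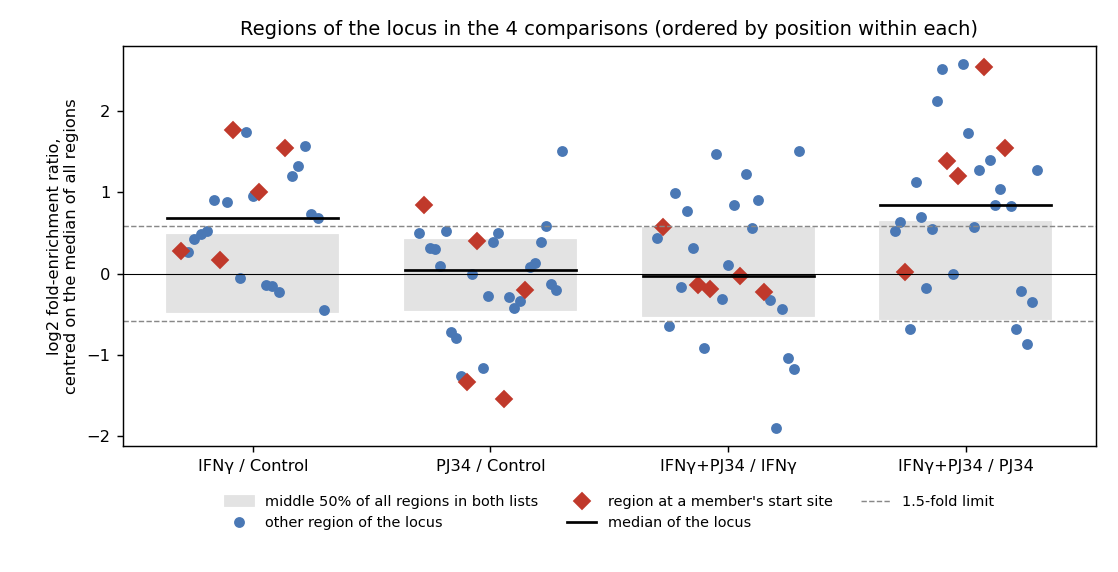
Log2 ratio of fold enrichments, centred on the median of all regions in both lists (y axis), for each region of the locus in the 4 comparisons (x axis); grey boxes hold the middle 50% of all regions in the genome and dashed lines mark the 1.5-fold limit. In IFNγ over Control, 12 of 23 regions lie above the limit and 0 below it, and in PJ34 over Control the red diamonds of the members' start sites spread from -1.54 to 0.85.

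The region for which the locus was picked lay in an intron of Ifi204, at chr1:173752337-173754816, 13.6 kb downstream of the start site and 11.6 kb upstream of that of Ifi207. It was 2480 bp wide, had a fold enrichment of 23.3 and a score percentile of 88.0 in IFNγ+PJ34, and had no peak in Control, IFNγ or PJ34. Among the 5758 regions of the genome found in IFNγ+PJ34 alone, whose median fold enrichment was 4.02, it was the third by score. Of its 50-base windows 87.9% were unique. The region is shown here because it held a single GAS, in the strict form TTCCNGGAA, 267 bases from the summit (capitals), with the summit at base 16 of these 300.
Ifi204 intron, chr1:173753293-173753592, plus strand: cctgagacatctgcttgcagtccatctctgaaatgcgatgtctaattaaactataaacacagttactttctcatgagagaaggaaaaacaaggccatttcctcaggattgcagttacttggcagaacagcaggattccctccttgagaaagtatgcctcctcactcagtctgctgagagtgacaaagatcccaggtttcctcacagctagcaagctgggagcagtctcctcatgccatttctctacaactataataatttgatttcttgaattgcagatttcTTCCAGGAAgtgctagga
Over whole regions, the strict GAS occurred 0.0398 times per kb in the locus and 0.0382 times per kb in all regions. An ISRE core lay on the minus strand 755 bases beyond the summit, outside the printed window. A pair of small regions flanked it, at chr1:173749850-173750160 and chr1:173755137-173755330, both in IFNγ+PJ34 alone and both at the 21.9 percentile.

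The next region of this kind, chr1:173693564-173694384, lay in an intron of Ifi208, 47.7 kb downstream of the Ifi207 start site, with a fold enrichment of 11.3 and a percentile of 66.7. The other 9 regions in IFNγ+PJ34 alone were small. Their widths ran from 184 to 426 bp, their fold enrichments from 2.38 to 4.98 and their percentiles from 3.47 to 38.4, all in the lower-scoring part of the list. By place, 4 of the 11 were in Aim2, 3 in Ifi204, and 1 each in Ifi208, upstream of Ifi204, in Ifi202b and upstream of Ifi205.

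Upstream of Ifi204, a region between protein-coding genes at chr1:173800580-173802814, 35.3 kb from the start site, was the highest of the locus away from their promoters. Ifi203-ps, at chr1:173776529-173798270 on the minus strand, lies between it and Ifi204, so the start site of Ifi203-ps is nearer. The fold enrichments of the region were 23.8 (Control), 17.7 (IFNγ), 9.44 (PJ34) and 53.9 (IFNγ+PJ34). PJ34 alone was thus below Control (log2 centred ratio -1.16) and IFNγ+PJ34 above IFNγ (1.47). The neighbouring region at chr1:173802922-173804203 went with IFNγ instead, at 7.45, 19.4, 5.44 and 17.2 in the same order. Another region at chr1:173808949-173809894 was found at 3.29 in Control and at 9.55 in IFNγ+PJ34, and in no other list. Between 67.0% and 75.6% of 50-base windows in these 3 regions were unique.

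Aim2, the longest of the 6 genes, held the most regions. Its body held 15 regions, of which Control had 10, IFNγ 6, PJ34 9 and IFNγ+PJ34 all 15. Of the 55218 regions in the genome, these lists had 38276, 31675, 35991 and 34184 in the same order. Thus 9 of the Aim2 regions were absent from IFNγ. Most were small: of those away from the start-site region, the highest lay at chr1:173450790-173453367, with fold enrichments of 10.9 (Control), 12.2 (IFNγ), 5.57 (PJ34) and 23.0 (IFNγ+PJ34). It ended 1604 bp before the nearest of the downstream start sites annotated for Aim2. At the others outside the start-site region, no list gave a fold enrichment above 8.49, the value of chr1:173426424-173427448 in IFNγ+PJ34.

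Upstream of Ifi205 the counts ran otherwise, beside the same genome counts of 38276 (Control), 31675 (IFNγ), 35991 (PJ34) and 34184 (IFNγ+PJ34) of 55218. The 13 regions there, up to 39.7 kb from its start site and some of them overlapping the olfactory receptor genes Olfr433, Olfr432 and Olfr430, were found 7 times (Control), 10 times (IFNγ), 9 times (PJ34) and 7 times (IFNγ+PJ34). The highest, chr1:174037677-174042239, 9.49 kb upstream, had fold enrichments of 19.5 (Control), 34.8 (IFNγ), 18.2 (PJ34) and 30.8 (IFNγ+PJ34), and so followed IFNγ as the Ifi205 start site did. The adjoining regions further upstream, given next, were also higher in IFNγ than in Control (log2 centred ratios 1.33 and 1.57). In IFNγ+PJ34 they were lower than in PJ34 or absent.

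At chr1:174042307-174044164, 11.9 kb upstream, the values were 7.95, 15.6, 7.68 and 4.58 in the same order. The next region, chr1:174044205-174045423, had 3.67 in Control, 8.49 in IFNγ and 4.26 in PJ34, and no peak in IFNγ+PJ34. Both were highest in IFNγ and lowest or absent in IFNγ+PJ34. Further away, chr1:174051407-174053225 had 13.1, 16.9, 17.3 and 9.04, and chr1:174053315-174054614 had 12.6, 15.6, 10.1 and 7.60. These 2 were again lowest in IFNγ+PJ34, whereas the adjoining chr1:174054896-174056338 was highest there, at 7.96 against 4.46 in Control, 2.54 in IFNγ and 3.43 in PJ34. Of the 4 regions in IFNγ alone, 3 lay in this stretch, with percentiles between 10.4 and 38.4, and the fourth, at the 46.7 percentile, between Ifi203 and Ifi202b. The most distant pair included chr1:174070355-174071137, which had 2.39 in Control and 6.01 in PJ34 with the highest log2 centred ratio of the locus for PJ34 over Control (1.51).

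**Figure D4:**
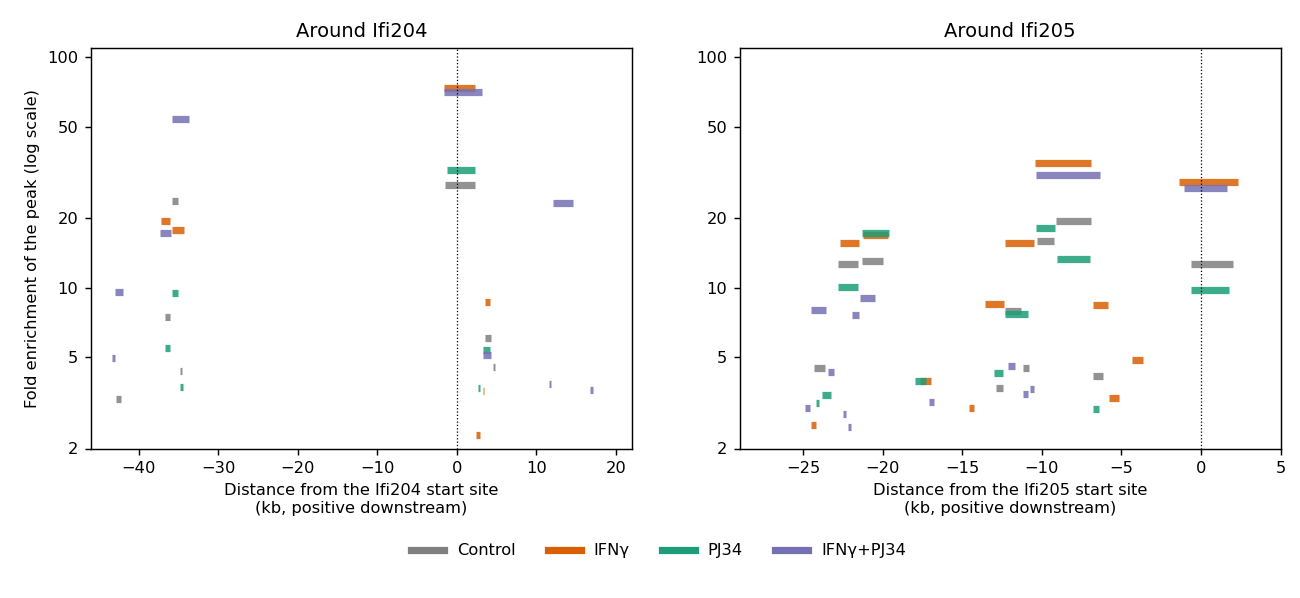
Peaks around Ifi204 and Ifi205, with the fold enrichment of each peak on a log scale (y axis) against the distance from the start site in kb, positive downstream (x axis); each bar spans the width of a peak. The bar at 13.6 kb on the left, at a fold of 23.3, is present in IFNγ+PJ34 only, and on the right the bars 11.9 kb upstream stand at 15.6 in IFNγ and 4.58 in IFNγ+PJ34.

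The remaining regions were weaker. Between Ifi203 and Ifi202b, the adjoining regions at chr1:173960968-173961550 and chr1:173961599-173962625 were highest in IFNγ+PJ34, at 10.3 and 7.35, beside 5.70 and 6.45 in Control, 4.02 and 4.52 in IFNγ and 4.11 and 4.27 in PJ34. Upstream of Ifi202b, chr1:174004222-174004838 had 6.45, 4.28, 4.51 and 8.84 in the order used above. In an exon shared by the annotations of Ifi203 and Mndal, chr1:173934420-173935744 had 3.83 (IFNγ), 3.29 (PJ34) and 7.62 (IFNγ+PJ34), and no peak in Control. The region in Control alone lay in Ifi204 at chr1:173762147-173762436 (fold enrichment 4.54), and only 50.2% of its 50-base windows were unique, the lowest share of the locus.

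Other genes of the cluster were also higher with IFNγ at their start sites. Of 16 symbols listed for the cluster and its neighbours 12 matched the annotation, and 6 of these had a start-site region in IFNγ: Ifi206, Ifi208, Ifi209, Ifi211, Ifi213 and Mndal, the last through the region it shares with Ifi203. All 6 were higher in IFNγ than in Control, beside 13.9% of the promoter regions of all protein-coding genes. Their median log2 centred ratio was 0.96. Of 5 with a region in both Control and PJ34, 3 were lower in PJ34 and 0 higher, beside 13.4% and 15.5%. Between IFNγ+PJ34 and IFNγ, none of 6 differed by the limit, beside 13.5% higher and 27.3% lower among all promoter regions.

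Ifi206 had fold enrichments of 16.5 (Control), 24.2 (IFNγ), 6.11 (PJ34) and 33.4 (IFNγ+PJ34). In Ifi213 they were 12.1, 18.6, 4.75 and 20.7, and at the Mndal start site of its own, chr1:173876766-173881205, 40.3, 56.3, 19.1 and 45.5. These 3 had their lowest value in PJ34, as Ifi207, Ifi203, Ifi205 and Ifi209 did. Ifi211, whose promoter is closest to that of Ifi207, had 34.8, 52.1, 43.5 and 61.7, and was not lower in PJ34. Ifi209 had 25.4, 30.7, 17.9 and 42.1. Ifi208 had 4.24 in Control, 10.3 in IFNγ and 13.1 in IFNγ+PJ34, and no peak in PJ34. Ifi214, Ifi203-ps, Cadm3, Fcer1a and Ackr1 had no start-site peak in any list.

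The limit of 50 kb left some of these outside. The members just inside it were the Ifi208 intron region named above, at 47.4 kb from the nearest start site, and a small region in IFNγ+PJ34 alone upstream of Ifi204, at 43.0 kb. Just outside were chr1:173886877-173887554, at 54.9 kb and in all 4 lists with fold enrichments of 3.60, 3.99, 3.43 and 8.20, and the Mndal start-site region, at 61.2 kb.

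Genes of cytosolic DNA sensing and inflammasomes elsewhere in the genome gave mixed values. Of 30 symbols listed 28 matched, and 27 had a start-site region in every list. In a single list, between 50.5 and 51.8% of all protein-coding genes had one. In IFNγ over Control, 10 of the 27 were higher and 5 lower, beside 13.9% and 18.8% of all promoter regions. Their median log2 centred ratio was 0.41. In PJ34 over Control 4 were higher and 5 lower, beside 15.5% and 13.4%. In IFNγ+PJ34 over IFNγ the counts were 6 and 7, beside 13.5% and 27.3%. In IFNγ+PJ34 over PJ34 they were 9 and 5, beside 12.8% and 33.5%. Regions in IFNγ+PJ34 alone lay within 50 kb of 11 of the 28 genes, beside 23.6% of all protein-coding genes. They made up 6.79% of the 265 regions around the listed genes, beside 10.4% in the genome.

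Among regions near these genes that differed in presence, the highest by score lay 15.8 kb from a start site of Polr3c, a subunit of RNA polymerase III, with a fold enrichment of 6.83 in IFNγ and 15.3 in IFNγ+PJ34 and no peak without IFNγ. A region shared by Casp1 and Casp4, which encode inflammatory caspases, had 3.45 in Control, 6.66 in IFNγ and 15.9 in IFNγ+PJ34. Samhd1, a nucleotide hydrolase, had one with 4.93, 8.98 and 13.4 in the same 3 lists, and Mre11a, a nuclease of DNA repair, one with 4.82, 11.7 and 9.38. None of these regions was found in PJ34. Il1b, the cytokine processed by caspase-1, had a region with 11.5 in Control, 7.01 in IFNγ and 10.8 in PJ34 that was absent from IFNγ+PJ34, and so had Irf7, an interferon regulatory factor, with 10.7, 6.91 and 4.92. Near Dhx9, an RNA helicase, a region had 11.2 in Control, 5.10 in PJ34 and 10.3 in IFNγ+PJ34 and was absent from IFNγ.

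The Gbp clusters on chromosomes 3 and 5 and the Schlafen cluster on chromosome 11 are likewise tandem arrays of interferon-inducible genes. Regions in IFNγ+PJ34 alone were 0 of 12 around the chromosome 3 Gbp genes, 20 of 38 (52.6%) around those of chromosome 5 and 4 of 33 (12.1%) around the Schlafen genes. The share of the Ifi200 locus, 21.2%, lay between these values, and that of all regions in the genome was 10.4%. At start sites, 4 of 4 Gbp genes on chromosome 3 and 2 of 3 on chromosome 5 were higher in IFNγ than in Control. So were 2 of 6 Schlafen genes, beside 13.9% of all promoter regions. In PJ34 over Control, 0 of 4, 0 of 2 and 2 of 6 were lower, in the same order, beside 13.4%. Gbp4 and Gbp8 on chromosome 5 had a peak in Control (3.24 and 4.24) and none in PJ34, and so are not in this count. These clusters were not tested against the locus.

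By the share of peak-covered length that each list contributed within 50 kb of the start sites, the locus had 22.6% from Control, 25.1% from IFNγ, 22.7% from PJ34 and 29.6% from IFNγ+PJ34. The whole lists covered 52.6, 42.5, 47.9 and 44.1 Mb in the same order. Among the members, Ifi205 stood apart with 22.8, 30.3, 25.3 and 21.5%, and the other 5 had their largest share, between 30.4 and 33.3%, in IFNγ+PJ34. Some peaks count for more than a single member, since the windows of neighbours overlap. Of 6260 other genes with a comparable covered length, the 5 whose 4 shares were nearest to the locus were Trim34b, Trim12a, Pkm, Tor3a and Rnf114. Such profiles were common, since 395 of the 6260 genes lay within a distance of 0.05 on this measure.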

How the data were processed

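H3K27ac ChIP-seq was performed on BMDMs in 4 conditions. Per the study's methods, the authors aligned reads to mm10 with Bowtie, kept unique reads of sufficient quality, called relaxed MACS peaks (p of 0.01) in each replicate against input, and kept peaks found in both replicates. The deposited lists, 1 per condition, give each peak a whole-number score, a fold enrichment (a linear ratio), a −log10 p-value and a −log10 q-value, and a summit offset. Read length and depth are not given in the sources used here, so no interval or floor based on reads can be given. The 8 input samples entered only as background. Whether the fold enrichment and score of a listed peak come from a single replicate or from pooled reads is not stated. Differences in input or depth between libraries can shift the values of a whole list, and the ratios were therefore centred. The source of the shifts between lists was not tested.

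Peaks were ranked by score within a list (percentile, ties at their mean rank) and merged across lists at an overlap of at least 1 bp. The fold enrichment of a region was that of its best-scoring peak in the list. Start sites were those of all GENCODE M21 transcripts, on the same build. Shares have exact Clopper-Pearson 95% intervals. Windows of 50 bases were counted over the whole genome (GRCm38.p6), a length chosen here. Named were the members, the cluster list, regions within 1 kb of a member's start site, regions in the higher-scoring 50% of a list, the highest of each presence pattern, up to 8 DNA-sensing genes and the 5 most similar genes. Some weaker regions were also named, chosen after their values were seen. The members and gene lists were chosen with earlier results of these data known. Python 3.11.15, pandas 2.3.3, scipy 1.17.1, pysam 0.24.0 and Biopython 1.88 were used. The functions were tested on simulated lists, where 3000 of 3000 presence patterns were recovered. In those lists a site held a single peak at most, and peaks of different sites could not overlap. Sites with several or close-lying peaks, as in the locus, were therefore not tested.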

Additional observations from a re-analysis of the deposited data

Results flagged for a closer look

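A few regions were picked out because the effect of an agent went opposite ways without and with the other agent. None of these differences was tested, since each condition has a single list. PJ34 went with a lower value in the absence of IFNγ and with a higher one in its presence at chr1:173800580-173802814, upstream of Ifi204 (log2 centred ratios -1.16 and 1.47), and at chr1:173450790-173453367, in Aim2 (-0.79 and 0.77). IFNγ went with a higher value in the absence of PJ34 and with a lower one in its presence at 2 regions upstream of Ifi205, chr1:174042307-174044164 (1.33 and -0.68) and chr1:174051407-174053225 (0.73 and -0.87).

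In presence, 3 regions were lost with IFNγ but gained with IFNγ under PJ34. They were chr1:173808949-173809894, at score percentiles of 11.5 in Control and 61.6 in IFNγ+PJ34, and in Aim2 chr1:173408683-173409202 (11.5 and 15.6) and chr1:173427599-173428141 (36.8 and 38.4). A region in Ifi211, chr1:173910026-173910516, went the other way, at 10.4 in IFNγ and 25.3 in PJ34, and 50.9% of its 50-base windows were unique.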

How the results depend on the processing

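No paired analysis was possible because the 2 replicates of a condition share a single list, which also keeps either of them from being left out. Of 96 alternative values, 70 stayed within 1.5 times the count or within the interval of the share and 26 moved. A change of direction was not labelled apart from other moves. By construction, fewer peaks were counted within 10 kb (Control 18, IFNγ 19, PJ34 21, IFNγ+PJ34 23) and among the higher-scoring 50% of the peaks (15, 18, 18 and 24). The share in IFNγ+PJ34 alone lay between 18.5 and 27.5% under the other settings, but was 35.7% in the higher-scoring 50% of each list (8.90% of all regions), where a region with weaker peaks elsewhere also counts as alone. The percentile of the highest such region was 87.2 by fold enrichment and 92.0 by width.

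The settings for the comparisons were chosen after seeing the data. Without centring, 7 regions were higher and 2 lower in IFNγ than in Control. With a limit of 2-fold, 7 were higher in IFNγ than in Control, 1 was higher in PJ34 than in Control, 3 were higher and 3 lower in IFNγ+PJ34 than in IFNγ, and 0 were lower in IFNγ+PJ34 than in PJ34. Centred on promoter regions, that number was 1. Among the higher-scoring 50% of both lists, 3 of 13 were higher and 2 lower in IFNγ+PJ34 than in IFNγ, and 10 of 13 higher and 1 lower in IFNγ+PJ34 than in PJ34, where fewer regions were compared. Among regions with at least 80% unique windows, 7 of 16 were higher in IFNγ than in Control, 4 of 17 in IFNγ+PJ34 than in IFNγ, and 11 of 20 in IFNγ+PJ34 than in PJ34. Start sites of the basic annotation changed no value. The cause of the other moves was not tested, and the lists hold no depth by which weak peaks absent from a list could be judged.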
